A study of Drosophila melanogaster with 15 samples.

Results

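The isoforms described here are the 1489 ovary transcript isoforms, of 10174 compared, that carried at least 1 feature seen in neither heads nor embryos. Isoforms were compared within the 4533 genes with a FlyBase FBgn identifier that occurred in all 3 tissue assemblies. A transcription start site (TSS) counted as ovary-only when no head or embryo isoform on the same strand, whatever its gene, started within 50 nt of it. An intron counted when none of theirs matched both its splice sites within 10 nt, and a 3′ end when none of theirs lay within 150 nt. The 1489 isoforms made up 14.6% of the ovary isoforms of these genes, the background share for any ovary-only feature, and they fell in 937 genes, or 20.7% of the shared genes. This position rule used no expression value, and no counts came with the assemblies.

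The study sequenced full-length cDNA of polyadenylated RNA from Drosophila melanogaster strain w1118 on Nanopore MinION and GridION devices. Ovaries came from virgin females aged 3 days (20 ovaries a replicate, 3 libraries). Heads came from adults aged 3 days (6 libraries, of which 4 were size-selected above 3 kb and 2 were not). Embryos came from 2 stages, aged 14 to 16 h in 3 libraries and 18 to 20 h in 3 others, with 50 embryos a replicate. By the methods, both sexes were used equally except for ovaries, so that sex and tissue cannot be told apart here. For ovaries and embryos the sample labels gave no selection state, while the methods describe size selection of Nanopore cDNA without singling out a tissue. Beyond the w1118 background that all groups shared, none carried a mutation or treatment, and all cDNA was amplified over 14 PCR cycles with a 12 min extension.

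In the fly ovary, germline nurse cells load the oocyte with the mRNAs that run early embryogenesis, while somatic follicle cells wrap each egg chamber and build the eggshell. Most of the maternal mRNAs are stored, silenced or localized before use, and sequences in their 3′ UTRs govern much of this. Where a gene starts, which exons it joins and where it is cleaved and polyadenylated set both the protein and the UTRs, and in flies neurons are known for long 3′ UTRs and the testis for short ones.

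Replicates had been merged into 1 assembly per tissue, so that no test between tissues was possible. Shares carry 95% Wilson intervals, which cover only the number of isoforms, sites or genes counted. The files hold no read depth, and by the study's account heads were sequenced more deeply than the other tissues. The number of isoforms differed: 10174 in ovaries, 43780 in heads and 13891 in embryos for the shared genes (mean 2.24, 9.66 and 3.06 a gene). An ovary-only feature is one not assembled in heads or embryos at their depths. In such bulk tissue, fewer cells of a type and less RNA per cell cannot be told apart. The ovary label fitted its markers: 11 of 12 germline and 16 of 17 follicle cell and eggshell genes had an isoform in ovaries, against 7 and 7 in heads and 5 and 4 in embryos. No isoform of vas was seen in any of the files used here. None of 8 neuronal genes was assembled in ovaries, against 8 in heads and 8 in embryos. Of 10 muscle genes, which the ovary sheath also expresses, 9 were present in ovaries, 10 in heads and 9 in embryos. Some markers of other cell types were present in ovaries too. These were 4 of 5 fat body genes (heads 5, embryos 4) and 3 of 5 haemocyte genes (5 and 4). Glia had 1 of 3 (3 and 3) and testis 1 of 6 (5 and 0).

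Examples of ovary-only TSSs are shown first, each with 30 bases of the Release 6 (dm6) genome sequence from RefSeq, 5′ to 3′ on the strand of the gene, with the base at the TSS in capitals. The 4 genes are among those in which most or all ovary isoforms used the new start.
ovo, chrX:5064220-5064249, plus strand: tccgttcctttttaCagttacatagcaatc
tyf, chrX:4119701-4119730, plus strand: ctgttatctcgttcTgactgactgggattg
stg, chr3R:29255310-29255339, minus strand: gctcggcatattcaGcacattcgttctcag
msi, chr3R:25594462-25594491, plus strand: cgcctaagcagcgaAaacaacatttaagtt

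Of 397 ovary-only introns, 390 had the canonical GT-AG ends. Shown are 3 ovary-only 5′ splice sites, with the first 2 bases of the intron in capitals, and the ovary-only 3′ splice site of Spn, with the last 2 bases of the intron in capitals.
ovo 5′ splice site, chrX:5067772-5067801, plus strand: gcagcggcgcGTaagtgcggaagatgagtc
Nedd4 5′ splice site, chr3L:17542953-17542982, plus strand: tcggccatcgGTcagcacattcccatccgc
heph 5′ splice site, chr3R:31985491-31985520, minus strand: gggaataaacGTgcgtaattatcgcccggt
Spn 3′ splice site, chr3L:2508856-2508885, minus strand: actctccccgcccggcacAGtgccctggca

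The 3′ ends differed in the sequence before them, and these 4 show the kinds seen: tral and bru1 with the polyadenylation signal AATAAA (in capitals), brat with none, and CycE with an A-rich stretch after the end (the 20 bases after the end in capitals, 15 of them A). The last base of the hexamer lay 32 bases before the end in tral, whose window stops 12 bases short of it, and 16 bases before the end in bru1.
tral, chr3L:12519823-12519852, plus strand: ctaaAATAAAagctaacttaatacgttttt
bru1, chr2L:12311421-12311450, plus strand: aagaaaaaAATAAAaaacaaacaaaaaaaa
brat, chr2L:19172298-19172327, plus strand: caccgtaataataatgcagacaaaaaccca
CycE, chr2L:15727765-15727794, minus strand: caaaaacaaaCAAAAAACAACTAAAAGAAA

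The 3′ end was by far the most frequent ovary-only feature. An ovary-only 3′ end was carried by 1061 isoforms (10.4% of 10174), an ovary-only intron by 439 (4.31%) and an ovary-only TSS by 171 (1.68%). Of the 1489 isoforms, 949 differed in the 3′ end only (63.7%, 61.3 to 66.1), 307 in an intron only (20.6%, 18.6 to 22.7) and 64 in the TSS only (4.3%, 3.38 to 5.45). The rest combined features, with 62 isoforms new in intron and 3′ end, 57 in TSS and intron, 37 in TSS and 3′ end, and 13 in all 3.

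**Figure D1:**
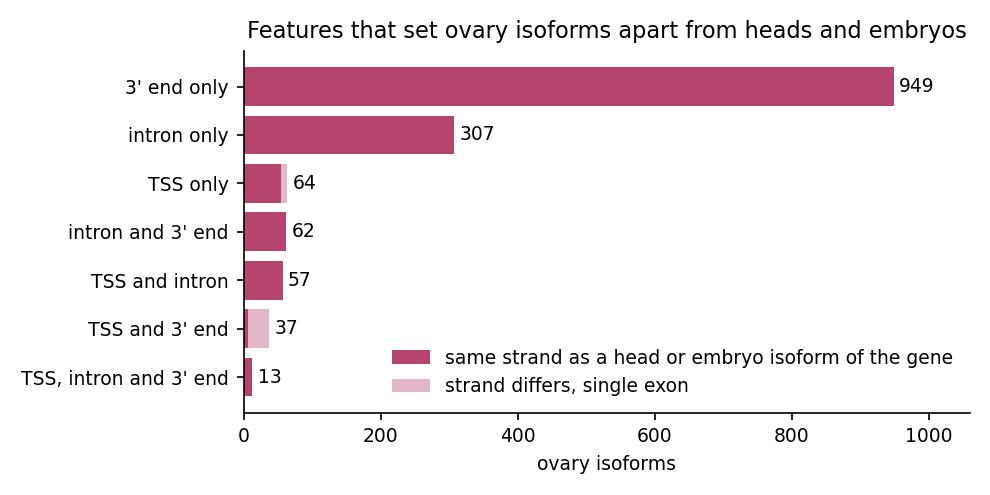
Number of ovary isoforms (horizontal axis) by the feature or features that set them apart from heads and embryos. Dark bars are isoforms on the same strand as a head or embryo isoform of the gene, light parts are single-exon isoforms whose strand differed. The 3′ end alone accounted for 949 isoforms, and most of the 37 isoforms new in TSS and 3′ end differed in strand.

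Strand touched the TSS counts. Of the 1489 isoforms, 29 lay on the strand opposite to their gene, and 11 more lay on the gene's strand while every head and embryo isoform of that gene lay on the other (among them e(y)2, Wnt5 and Rab6). All 40 were single-exon isoforms with an ovary-only TSS, and 31 of them also had an ovary-only 3′ end. An unspliced read has no splice site from which to read its direction. Without the 40, 1449 isoforms in 899 genes remained (131 with an ovary-only TSS, 439 with an intron and 1030 with a 3′ end), and the sites described from here on come from these.

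Among distinct positions the 3′ end again came first, whereas introns outnumbered TSSs by count but not by share. Of 5181 TSSs used in ovaries, 4651 occurred in both other tissues, 306 in heads only, 104 in embryos only and 120 in ovaries alone (2.32%, 1.94 to 2.76, either strand). Of 23970 introns, 398 occurred in ovaries alone (1.66%, 1.51 to 1.83). Of 6791 3′ ends, 934 did (13.8%, 13 to 14.6). In these assemblies, TSS and intron positions were thus shared more often than 3′ end positions. The authors' assembly drew on known promoters for starts and on short reads for junctions. The part of these references in these shares was not tested.

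Most ovary isoforms matched the other tissues closely. An identical head or embryo isoform existed for 6975 of the 10174 (68.6%), and 1710 more (16.8%) combined features each seen elsewhere. Within the 1489 isoforms, 1409 (94.6%) shared an intron with a head or embryo isoform on the same strand, whatever its gene. Their median length was 3058 nt, against 3112 nt for the other ovary isoforms. An annotated transcript gave its name to 720 of them (48.4%), against 6240 of the other ovary isoforms (71.8%).

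The same rule applied to each of the other assemblies gives the scale. In heads, 14578 of 43780 isoforms (33.3%, 32.9 to 33.7) had a feature seen in neither other tissue, and in embryos 1851 of 13891 (13.3%, 12.8 to 13.9). The 3′ end alone set apart 63.7% of the ovary-only isoforms, 45.7% of the head-only ones (44.9 to 46.5) and 76.1% of the embryo-only ones (74.1 to 78). Introns alone did so for 20.6% in ovaries, 32.2% in heads and 13.6% in embryos. Ovaries thus lay between the other tissues in both shares.

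Gene by gene, 666 genes had 1 ovary-only isoform and 36 had 5 or more. The share of genes with such an isoform followed the number of ovary isoforms: it was 8.74% of 2644 genes with 1 ovary isoform, 25.1% of 1195 with 2 to 3, 55.4% of 581 with 4 to 9 and 74.3% of 113 with 10 or more. By the number of isoforms that heads and embryos had, the share of ovary isoforms that were ovary-only was 14.3% in genes with 2 to 3 head and embryo isoforms, 13.8% with 4 to 9, 15.9% with 10 to 29 and 14.1% with 30 or more. By chromosome, 384 of 2043 X-linked ovary isoforms (18.8%, 17.2 to 20.5) and 41 of 201 on chromosome 4 (20.4%, 15.4 to 26.5) were ovary-only, against 12.5% to 14.4% on the arms of chromosomes 2 and 3. The X held 68 of the 171 isoforms with an ovary-only TSS, of which tyf gave 14 and ovo 12.

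In the plot of the 20 genes with the most ovary-only isoforms, RNA-binding and translation regulators stood among the first. The largest number was in tyf, a translational activator known from the clock neurons, with 16 of its 19 ovary isoforms. Next came tral (trailer hitch), a component of RNP granules, with 13 of 42, and ovo, the zinc-finger transcription factor of the female germline, with all 12. In heph, the fly polypyrimidine tract-binding protein, 11 of 23 were ovary-only, and in mub, a KH-domain RNA-binding protein, 11 of 16. Isoform numbers in heads and embryos varied widely among these genes: 9 and 6 for tyf, 38 and 13 for tral, 2 and 3 for ovo, 43 and 15 for heph, and 135 and 14 for mub.

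**Figure D2:**
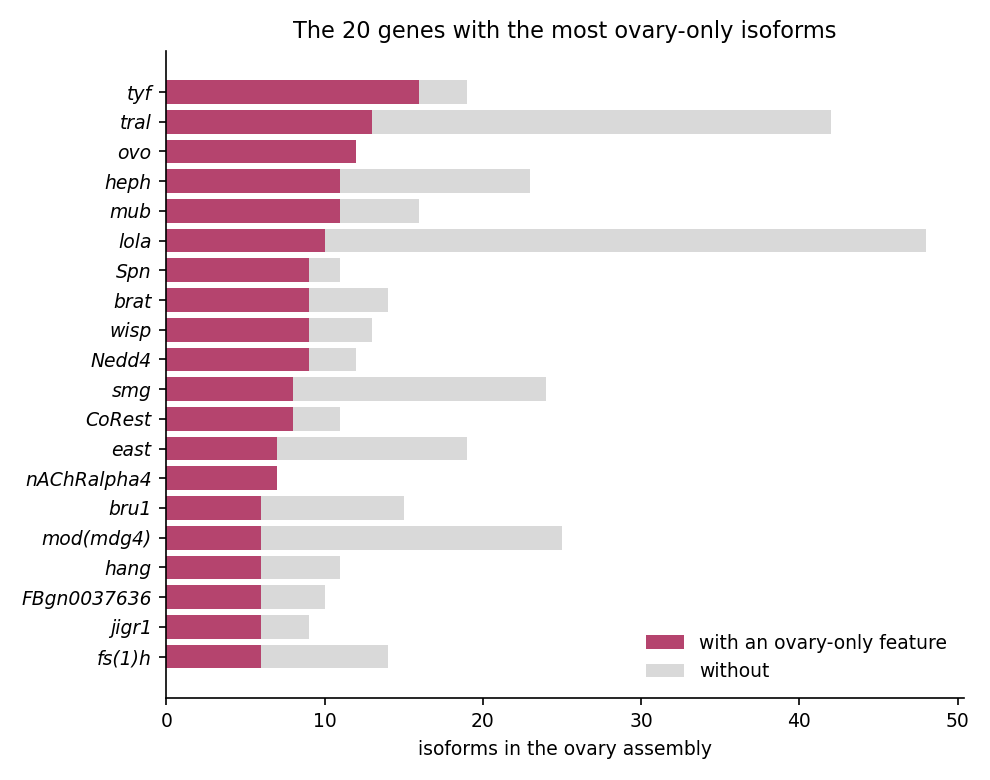
Isoforms in the ovary assembly (horizontal axis) for the 20 genes with the most ovary-only isoforms; dark parts are isoforms with an ovary-only feature. All 12 ovo and all 7 nAChRalpha4 isoforms were ovary-only, whereas tral and lola had 13 of 42 and 10 of 48.

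The 131 isoforms with an ovary-only TSS used 79 sites in 76 genes, with a position shared by CG13375 and CG32816 counted in each. Of these sites, 43 (54.4%, 43.5 to 65) lay downstream of every head and embryo TSS of the gene, 20 (25.3%, 17 to 35.9) upstream of all, and 16 between them. The median distance to the nearest other TSS was 701 nt (quartiles 326 and 2228). In 37 sites the first exon overlapped no other first exon of the gene, and in 42 it did. Nearly all the sites were known starts: 73 of 79 (92.4%, 84.4 to 96.5) lay within 50 nt of an annotated TSS, against 97.7% of 5003 TSSs that ovaries shared with another tissue. The authors' assembly step drew on a list of known promoters for the starts of both sets.

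Core promoter letters did not separate the sets at this number of sites. The TATA sequence TATAAA, searched on the gene's strand 45 to 15 bases before the start, was present at 3 of 79 ovary-only TSSs (3.8%), against 3 of 76 shared TSSs of the same genes (3.95%) and 7.77% of annotated starts of protein-coding genes. The initiator letters TCAGT, searched within 10 bases of the start, occurred at 11.4% (6.11 to 20.3), against 22.4% (14.5 to 32.9) and 13.1%. The DRE, TATCGATA, was found from 100 bases before to 50 after the start on either strand in 7.59%, 7.89% and 6.27%, and the E-box CACGTG in 1.27%, 1.32% and 2.31%. The intervals of the ovary-only and same-gene shares overlapped for each of the 4 motifs.

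The ovo gene gave the fullest change. All 12 ovary isoforms started at chrX:5064234, inside what is annotated as a 5′ UTR exon, while the 2 head and 3 embryo isoforms all started 15960 nt upstream, at 5048274. Each ovary isoform also carried an ovary-only intron, either 5064311 to 5064452 (11 isoforms), 5067782 to 5068135 (8 isoforms) or both. Their 3′ ends were spread over 5069454 (3 isoforms), 5069614 (1), 5069704 (5), 5069901 (2) and 5070058 (1), whereas 4 of the 5 head and embryo isoforms ended at 5069704 and 1 head isoform at 5070929. Ovary isoforms were 3936 to 5074 nt long, against 5378 to 6762 nt in heads and 5378 to 6521 nt in embryos, without overlap. The gene is known to make germline and epidermal proteins from separate starts, the epidermal one named shavenbaby. In these assemblies, annotated coding sequences of 975 codons (6 isoforms) and 1028 codons (2 isoforms) were carried in ovaries and not in the other tissues, where the coding sequence had 1351 codons.

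In tyf, 10 ovary isoforms began at chrX:4119715 and 4 at 4120099, 2272 and 2656 nt downstream of the nearest other start. The other 5 ovary isoforms, all 9 head isoforms and 5 of 6 embryo isoforms began at 4116950. Of the 14 isoforms from the ovary-only starts, 13 had an ovary-only intron, joining 3 new 5′ splice sites to the acceptor at the end of the intron at 4120295. The intron 4120139 to 4120295, used by 6 of the 13, is annotated but was not GT-AG. None of the 14 had an ovary-only 3′ end. Lengths overlapped: 2741 to 7222 nt in ovaries, 4492 to 9513 nt in heads and 1309 to 8260 nt in embryos.

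The stg (string) gene encodes the Cdc25 phosphatase that triggers mitosis and is loaded into the egg as mRNA. It had 5 ovary isoforms, of which 3 started at chr3R:29255325 and 2 at 29255800. The single head and single embryo isoform, 3063 nt long in each, started at 29255800 and ended at 29251827. Every ovary isoform was shorter (1410 to 2746 nt), through the start 475 nt downstream, or through ends at 29252144, 29252261 or 29253480, which lay before the shared one. All 5 had 2 exons, as had the other tissues' isoforms.

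The 4 ovary isoforms of msi (Musashi), an RNA-binding protein of stem cells and sensory organ precursors, all started at chr3R:25594476, 76152 nt downstream of the nearest head or embryo start. Their introns and 3′ ends were shared. In heads 34 and in embryos 8 isoforms started at 25516119 or 25518324. The ovary isoforms had 2 or 3 exons, against up to 7, and 3 of them held an annotated coding sequence of 606 codons that no head or embryo isoform carried, where the sequences had 567, 605, 618 or 634 codons.

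Replacement of the start was rare beside addition of a start. In 24 of the 76 genes every ovary isoform had an ovary-only TSS, but most of these genes had a single ovary isoform. Among the 58 genes with 2 or more ovary isoforms, 6 (10.3%, 4.83 to 20.8) used ovary-only TSSs throughout: ovo, msi, Cp110 (a centriole protein), CG13375, mlt and br. Both ovary isoforms of br (broad), a BTB zinc-finger transcription factor that patterns the follicle cells, started at chrX:1612309, 3439 nt downstream of 1608870, which 6 head and 6 embryo isoforms used. The farthest start, chrX:470726, lay 175764 nt upstream in CG13375, outside that gene as annotated. The same position was an ovary-only TSS of CG32816, 135925 nt upstream and in an annotated 5′ UTR exon of that gene. In CG1677 the start lay 119602 nt upstream. The first exons from these starts overlapped no exon of the head or embryo isoforms of their gene. In cad (caudal), whose maternal mRNA patterns the posterior of the embryo, 2 of 4 ovary isoforms began at chr2L:20770895, 163 nt downstream of the start used by the single head and the single embryo isoform.

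**Figure D3:**
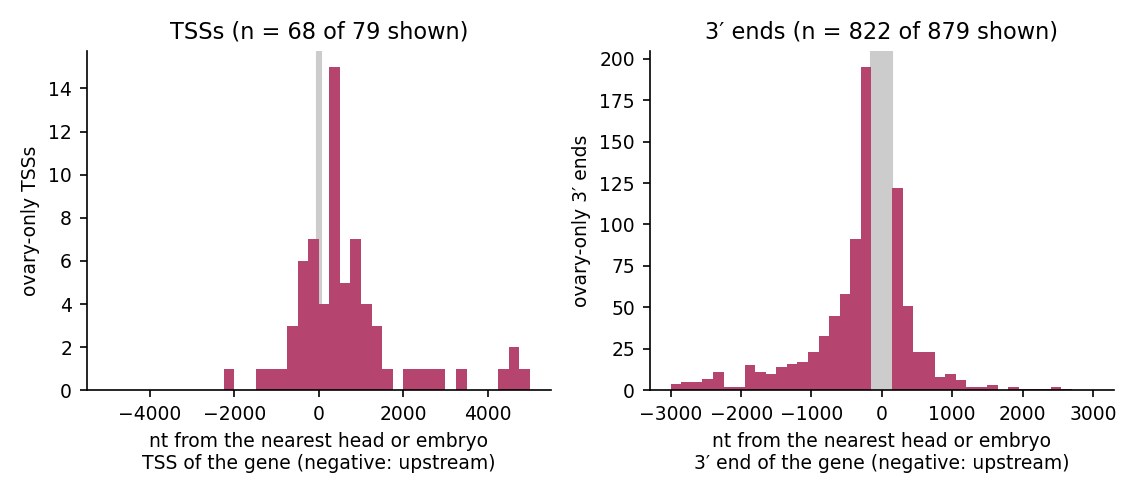
Distance in nt from each ovary-only TSS (left, bins of 250 nt) or 3′ end (right, bins of 150 nt) to the nearest head or embryo site of the gene, negative upstream; grey marks the window within which sites counted as the same. Sites beyond 5000 nt (TSSs) or 3000 nt (3′ ends) are not drawn, which leaves 68 of 79 and 822 of 879. TSSs lay downstream of the nearest other site in 53 cases and upstream in 26, 3′ ends upstream in 606 and downstream in 273.

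Of the 131 isoforms with an ovary-only TSS, 55 had no other ovary-only feature and 70 (53.4%, 44.9 to 61.8) also had an ovary-only intron. Among isoforms with another TSS, 369 of 9947 had an ovary-only intron (3.71%) and 6 of 217 of those in the same genes (2.76%, 1.27 to 5.9). In 68 of the 70 the first intron, the one that leaves the ovary-only first exon, was itself ovary-only. Ovary-only 3′ ends accompanied 19 of the 131 (14.5%, 9.49 to 21.5), against 10.2% (9.59 to 10.8) of isoforms with another TSS.

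The 439 isoforms with an ovary-only intron held 397 such introns in 286 genes, with the first intron shared by CG13375 and CG32816 counted in each. In 163 introns (41.1%, 36.3 to 46) both splice sites were known from heads or embryos and only the pairing was new. A new 5′ splice site was used in 114 (28.7%), a new 3′ splice site in 60 and new sites on both sides in 60. Of the 397, 168 (42.3%) ran across an exon of the other isoforms, that is, skipped it, and 137 (34.5%) lay wholly inside such an exon. Most fell in coding regions (280), with 106 in 5′ UTRs and 9 in 3′ UTRs. The dinucleotides were GT-AG in 390 (98.2%, 96.4 to 99.1), against 99.1% of 23538 introns shared with another tissue. The annotation held 236 of the 397 (59.4%, 54.5 to 64.2), against 99.1% of the shared introns, and their median length was 1297 nt, against 89 nt.

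Repeated use in several isoforms marked a few introns. In heph, which carries 7 ovary-only introns, 7 isoforms used the intron chr3R:31979620-31985510 in the 5′ UTR, with the ovary-only 5′ splice site shown above; most of the others joined known sites over longer spans. Nedd4, a HECT-domain ubiquitin ligase, had ovary-only introns at chr3L:17542813-17542890 (7 isoforms) and chr3L:17542963-17543504 (8 isoforms), both inside an exon of the other tissues and both in the coding region. Of its 12 ovary isoforms 9 were ovary-only, although heads had 72 isoforms and embryos 22. In Spn (Spinophilin), a scaffold that binds protein phosphatase 1, 7 isoforms used the ovary-only 3′ splice site shown above, in the intron chr3L:2508866-2509363. The annotated coding sequence of 2121 codons was carried by 3 ovary isoforms and no other, against 2148 codons elsewhere. All 6 ovary-only isoforms of jigr1 differed in 5′ UTR introns.

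Cyclin E (CycE), which drives entry into S phase, had 7 ovary isoforms, 2 in heads and 3 in embryos. Starts at chr2L:15746610 (5 ovary isoforms) and 15748150 (2) were each used by an embryo isoform, while both head isoforms started at 15751078. Of the 7, 4 carried an ovary-only intron and 5 an ovary-only 3′ end, at 15727785 (3 isoforms, before the A-rich stretch shown above) or 15728602 (2). The end that all embryo isoforms and 1 head isoform used, 15727582, ended the other 2. An annotated coding sequence of 712 codons occurred in 1 ovary isoform, against a longest of 709 in the other tissues.

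The hts gene (hu-li tai shao), on chromosome arm 2R, encodes adducin-like proteins of the fusome and the ring canals that join nurse cells to the oocyte. Of its 11 ovary isoforms, 4 ended at 19399519 and carried the intron 19401356 to 19407840, neither of which occurred among 50 head and 24 embryo isoforms. The end lay 962 nt before the nearest other 3′ end, in an annotated 3′ UTR exon with AATAAA before it. These isoforms and the other ovary isoforms started at 19424114 or 19424903, which heads and embryos used too, so that the ovary-only part lay at the 3′ side alone. That part reached the coding region: the 4 isoforms carried an annotated coding sequence of 1156 codons, with the ovary-only intron inside it. No head or embryo isoform carried this sequence, and the longest there had 739 codons.

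The ovary-only 3′ ends numbered 879 in 706 genes, with positions within 150 nt of each other counted as 1 site. Of these, 485 (55.2%, 51.9 to 58.4) lay between head and embryo 3′ ends of the gene, 317 (36.1%, 33 to 39.3) before the most proximal and 77 (8.76%, 7.07 to 10.8) beyond the most distal. Ends before the most distal other end thus made up 91.2% (89.2 to 92.9) of ovary-only ends. The share was 76.7% of 5348 head-only ends and 87.5% of 1349 embryo-only ends, each set against the other tissues. These references were unequal: heads, with a mean of 9.66 isoforms a gene, were in those for ovaries and embryos only. The part of this in the shares was not tested. In 779 sites (88.6%) the last exon overlapped a last exon of the other tissues, and 714 of these fell short of the most distal end, by a median of 1897.5 nt (quartiles 870 and 4573). The 65 that passed it did so by a median of 304 nt.

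By annotation, 448 of the 879 ends (51%) lay in a 3′ UTR exon, 163 (18.5%) in a coding exon, 146 (16.6%) in an intron, 98 outside the annotated gene and 18 in a 5′ UTR exon. An annotated 3′ end lay within 150 nt of 178 (20.3%, 17.7 to 23), against 55.7% (52.6 to 58.7) of 1009 3′ ends that ovaries shared with another tissue in the same genes. The share was 14.4% for head-only and 8.82% for embryo-only ends. The hexamer AATAAA, searched on the gene's strand in the 50 nt before the end, was present at 173 (19.7%, 17.2 to 22.4), against 39.6% (36.7 to 42.7) of the shared ends of the same genes and 50% of annotated ends of protein-coding genes. Head-only and embryo-only ends had it in 18.2% and 14%. Within the ovary-only ends it stood before 24.3% of those in 3′ UTR exons, 21.2% of those in introns and 7 of the 163 in coding exons (4.29%, 2.1 to 8.6).

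Stretches of A in the RNA can prime cDNA synthesis inside a transcript. At least 12 A among the 20 bases after the end were found at 45 ovary-only ends (5.12%, 3.85 to 6.78), against 13.8% (11.8 to 16) of shared ends of the same genes and 10.1% of annotated ends. The methods describe filtering and correcting the 3′ ends of assemblies against a set of polyadenylation sites, and whether the deposited files were written before or after that step was not stated.

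**Figure D4:**
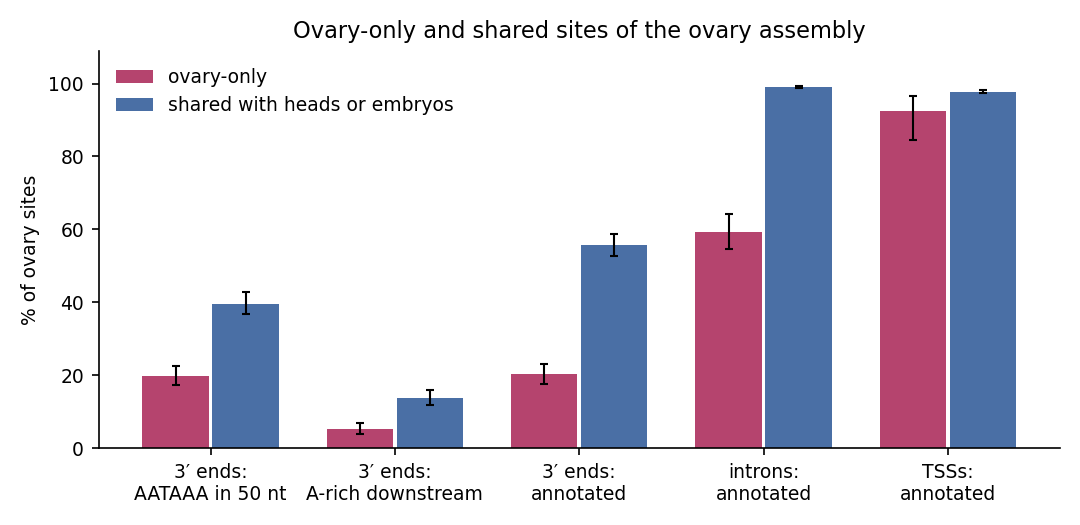
Percent of sites of the ovary assembly (vertical axis) with each property, for ovary-only sites (left bar of each pair) and sites shared with heads or embryos (right bar); lines are 95% Wilson intervals. Shared 3′ ends are those of the same genes, shared introns and TSSs those of all shared genes. AATAAA stood before 19.7% of ovary-only and 39.6% of shared 3′ ends, and TSSs were annotated in 92.4% and 97.7%.

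Among single genes, tral carried 13 isoforms with an ovary-only 3′ end: 8 at chr3L:12519864, 4 at 12519213 and 1 at 12519396, all in its 3′ UTR. Median isoform length was 3257.5 nt in ovaries (42 isoforms), against 3984.5 nt in heads (38) and 4177 nt in embryos (13), with a single TSS in each tissue. The shortest isoform was 2433 nt in ovaries, against 2957 nt in heads and 3358 nt in embryos, and the ranges overlapped.

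In brat, a translational repressor that acts with Nanos and Pumilio, 9 of 14 ovary isoforms had an ovary-only 3′ end in the 3′ UTR, at chr2L:19171502 (1 isoform), 19171650 (2), 19172045 (1), 19172327 (4) or 19172567 (1). AATAAA preceded the last of these only. In wisp (wispy), the cytoplasmic poly(A) polymerase of the oocyte, 9 of 13 ovary isoforms had an ovary-only end, between chrX:11897836 and 11899751. These ends formed 5 sites after merging, of which 3 lay in coding exons, 1 in an intron and 1 in the 3′ UTR. None had AATAAA. The other 4 ended at 11899920, as did the embryo isoform, and the single head isoform ended at 11898333. All 13 shared 1 start with both other tissues.

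For mub, all 11 ovary-only isoforms differed in the 3′ end alone, 6 of them at chr3L:21926225, an annotated end, and 3 at 21924565. Ovary isoforms of mub had a median of 2991.5 nt, against 4421 nt in heads and 4333 nt in embryos. The nicotinic acetylcholine receptor subunit gene nAChRalpha4 had 7 ovary isoforms, all ovary-only, against 39 in heads and 8 in embryos. Of these, 6 ended at ovary-only 3′ ends between chr3L:23278591 and 23284538, and the isoform that ended at 23287448, the end of many head and embryo isoforms, had only 3 exons and an ovary-only intron of 71196 nt. Median length was 2264 nt in ovaries, 5216 nt in heads and 5508.5 nt in embryos.

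For zld (Zelda), the pioneer factor of zygotic genome activation, heads and embryos had 1 isoform each and ovaries 4. The ovary isoforms on the gene's strand ended at chrX:19776131 (in the 3′ UTR, annotated, with AATAAA), 19778754 and 19780050 (both in a coding exon). The head isoform ended at 19767142 and the embryo isoform at 19779375. The fourth ovary isoform was a single-exon one on the opposite strand. Every ovary isoform had an ovary-only 3′ end in 198 of the 706 genes, but in only 22 of the 530 with 2 or more ovary isoforms (4.15%, 2.76 to 6.2), where zld was joined by trx (Trithorax, 3 isoforms) and CG14435 (3).

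The farthest ovary-only 3′ ends were single isoforms. That of dpr6 lay 39214 nt beyond the most distal other end, in an intron, and was annotated. In rdgA, LpR2, PAN3 and Eip63E the end lay 19266, 18956, 13657 and 10315 nt before the nearest other end. At the edge of the windows, 33 distinct ovary 3′ ends lay 141 to 150 nt from another tissue's end and so counted as seen (ftz-f1 at 149 nt), and 34 lay 151 to 160 nt away and counted as ovary-only (CG14442 at 151 nt). For introns these numbers were 7 at 6 to 10 nt (dah at 9 nt) and 9 at 11 to 15 nt (CG3632 at 11 nt), and no TSS lay 41 to 60 nt away.

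Coding sequences were compared only where an isoform held an annotated one in full, so that cut or unannotated ones were not counted. Ovary isoforms carried 6152 distinct annotated coding sequences in full, of which 139 (2.26%) were in no head or embryo isoform, and 85 of these, in 73 genes, were carried by an isoform with an ovary-only feature. Of the ovary-only isoforms of coding genes, 883 of 1436 (61.5%, 58.9 to 64) held a complete annotated coding sequence, against 7188 of 8566 other ovary isoforms (83.9%, 83.1 to 84.7). The share depended on the feature: 51 of 54 for a TSS only (94.4%), 563 of 940 for a 3′ end only (59.9%) and 173 of 304 for an intron only (56.9%). Isoforms for which every complete annotated coding sequence was absent from heads and embryos made up 5 of 13 with all 3 features (38.5%), 18 of 62 with intron and 3′ end (29%), 9 of 57 with TSS and intron (15.8%), 44 of 304 with an intron only (14.5%), 11 of 940 with a 3′ end only (1.17%) and 0 of 54 with a TSS only. An isoform that also held a coding sequence seen elsewhere was not counted. Thus 3 msi isoforms and 1 of CG11076, new in the TSS only, carried an ovary-only coding sequence without entering this count.

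Of these coding sequences, the ubiquitin protease gene puf had one of 3921 codons in an ovary isoform of 12555 nt with 8 ovary-only introns, against 2832 codons elsewhere. In trx, the histone H3 lysine 4 methyltransferase, a sequence of 3358 codons was complete in 1 ovary isoform of 11852 nt, and no head or embryo isoform (at most 8828 and 9857 nt) held a complete one. In cad, 1 ovary isoform with 2 ovary-only introns carried 445 codons, against 427.

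Gene groups differed in how many of their members had an ovary-only isoform, beside 20.7% over all shared genes. Maternal mRNA control had 17 of 31 genes (54.8%, 37.8 to 70.8), with 81 of 296 isoforms (27.4%, against 14.6% over all). Besides tyf, tral, brat and wisp it included smg (Smaug), which represses and clears maternal mRNA, with 8 of 24 ovary isoforms, and bru1 (Bruno), which silences oskar mRNA, with 6 of 15. Of the 17 genes, 14 had an ovary-only 3′ end, 7 an intron and 1 a TSS. Splicing and RNA-binding regulators had 20 of 36 (55.6%, 39.6 to 70.5), including heph, mub, msi and Sxl, the sex determination switch, with 4 of 22 isoforms ending in 1 merged ovary-only site. In both groups the median gene had 1 ovary-only isoform, against 0 over all genes. Genes of these groups also had many ovary isoforms, and the part of that number in the shares was not tested.

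Chromatin and transcription factors had 23 of 53 (43.4%, 31 to 56.7), with lola, a BTB zinc-finger gene on arm 2R, at 10 of 48 isoforms and mod(mdg4), an insulator protein gene, at 6 of 25. Follicle cell signalling and fate had 13 of 31 (41.9%, 26.4 to 59.2), led by dlg1 (Discs large, 3 of 7), Mnt (the Myc antagonist, 3 of 24) and br. Oocyte cytoskeleton and transport had 13 of 38 (34.2%, 21.2 to 50.1), with hts, spir (Spire, an actin nucleator, 4 of 9) and par-1 (a polarity kinase, 4 of 29), of which spir and par-1 differed in introns only. Meiosis and cell cycle genes had 8 of 28 (28.6%, 15.3 to 47.1), with CycE, stg and CycA (Cyclin A, 2 of 4). Germ plasm and axis determinants had 3 of 8 (37.5%, 13.7 to 69.4): ovo, stau (Staufen, which carries bicoid and oskar mRNA, 5 of 8) and gcl. Sex determination genes had 4 of 8, namely ovo, Sxl, fl(2)d and snf. By isoforms the shares were 17.8% for chromatin, 19.1% for follicle cells, 15.8% for the cytoskeleton and 20.4% for the cell cycle. They were 54.5% for germ plasm and 39.1% for sex determination, both with the 12 ovo isoforms, against 14.6% over all. The part of the number of ovary isoforms a gene in the gene shares was not tested here either.

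The piRNA pathway had 2 of 16 (12.5%, 3.5 to 36), with 1 isoform each of piwi and nxf2. Cytoplasmic ribosomal proteins had 9 of 78 (11.5%, 6.19 to 20.5) and 10 of 154 isoforms (6.49%), and the proteasome had 0 of 20 genes and 0 of 22 isoforms. Eggshell, vitelline and yolk genes could hardly be compared, because only 1 of them occurred in all 3 tissues (0 of 1). Of the lists for other tissues, muscle had 3 of 18, fat body and haemocytes 2 of 10, and both neuronal genes shared by the tissues had an ovary-only isoform, unc-13 in 5 of 11 isoforms and Rbp9 in its single one.

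**Figure D5:**
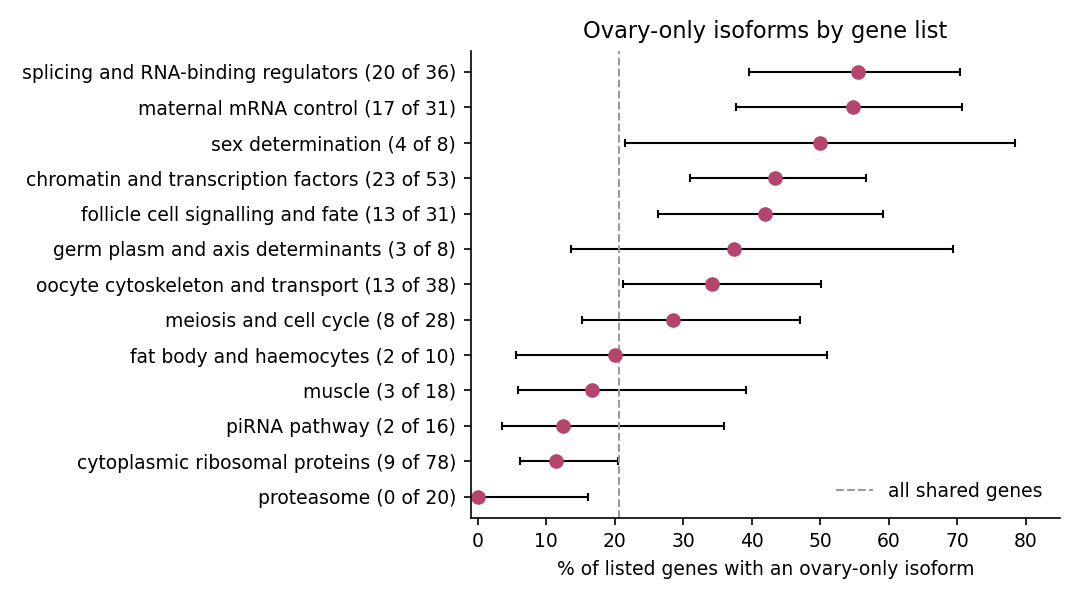
Percent of the genes of each list that occurred in all 3 assemblies and had an ovary-only isoform (horizontal axis; numbers of genes in parentheses), for lists with at least 8 such genes. Lines are 95% Wilson intervals and the dashed line is the 20.7% of all 4533 shared genes. Splicing and RNA-binding regulators (55.6%) and maternal mRNA control (54.8%) stood highest, the proteasome (0 of 20) lowest.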

How the data were processed

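The authors merged the replicate Nanopore libraries of each tissue, aligned the reads with minimap2 to the dm6 genome, corrected and collapsed them with FLAIR (short-read junctions, known promoters, at least 3 full-length reads an isoform) and classified isoforms with SQANTI3. They deposited 1 isoform annotation per tissue. The deposited values used here are exon positions in genome coordinates, with no count, level or depth. All 3 files were used as given. Where an isoform carried the name of an annotated transcript, its lower end lay 1 nt above the annotated position in 75.2% of 6539 ovary isoforms, and positions are printed as deposited.

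Isoforms of the shared FBgn genes were compared with Python 3.11.15 and numpy 2.4.6, with windows of 50, 10 and 150 nt. Nearby ovary-only positions were merged into sites. Coding regions, UTRs and annotated ends came from Ensembl release 115, sequence from the RefSeq copy of Release 6, and intervals from SciPy 1.17.1. Genes were named by rule: the 20 with the most ovary-only isoforms, the 10 with the most sites of each feature, the 10 farthest TSSs and 3′ ends, and up to 6 a list. Others were chosen after their values were seen. The members and gene lists were chosen with earlier results of these data known. The method was tested on simulated isoforms. Alternatives changed the windows, the tissues compared, the genes, the strand and the motif.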

Additional observations from a re-analysis of the deposited data

How the results depend on the processing

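The counts were recomputed under 82 alternatives for 8 results, of which 66 stayed within 1.5 times the count or within the interval of the share. Taking embryos alone as the other source gave 3807 ovary-only isoforms in 2007 genes (579 with a TSS, 1657 with an intron, 2591 with a 3′ end). Heads alone gave 312 isoforms with a TSS. Taking all FBgn identifiers of the ovary file, not only the shared ones, gave 2310 isoforms in 1641 genes (566 with a TSS, 1705 with a 3′ end). Not counting annotated features gave 975 isoforms (35 with a TSS, 170 with an intron). A 3′ end window of 300 nt gave 670 isoforms with a 3′ end. The share of ovary-only 3′ ends with the signal was 28% for AATAAA or ATTAAA in 50 nt and 14.9% for AATAAA in 30 nt. Leaving out isoforms whose strand differed, an alternative chosen after seeing the data, gave 1449 isoforms in 899 genes (131, 439 and 1030). The 3′ end had the highest count of the 3 features under each of these settings of sources, genes, annotation, window and strand. The cause of these shifts was not tested, except that fewer reference isoforms leave more features unmatched by construction.

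No paired analysis was possible because each assembly pools its replicates, and leaving out replicates could not be done for the same reason. The files hold no depth, and the part of sequencing effort in what was absent from heads or embryos, or in the number of isoforms per tissue, was not tested. By the study's account heads were sequenced more deeply than ovaries and embryos. Most head libraries were labelled as size-selected, and the labels of ovaries and embryos left this open, which also bears on isoform lengths compared between tissues.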
